A study of Mus musculus with 6 samples.

Results

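The Toll-like receptor genes *Tlr1*, *Tlr2*, *Tlr3*, *Tlr4*, *Tlr5*, *Tlr6*, *Tlr7*, *Tlr8*, *Tlr9* and *Tlr13* were described in IL-4-treated macrophages with and without ATP-citrate lyase (Acly). The members were taken by gene symbol and not by their values, and each gene was represented by the transcript row with the highest count over the 6 libraries. They are 10 of 24445 genes, and 9 of them were among the 12023 genes with enough reads to be tested. The study asked how loss of Acly, which converts citrate to acetyl-CoA, alters the response of macrophages to IL-4. It also asked whether that loss in myeloid cells affects tumor-associated macrophages and tumor growth. Bone marrow of female mice on a C57Bl/6J background was cultured for 7 days in L929-conditioned medium, which gives bone marrow-derived macrophages (BMDMs), and the cells were then treated with IL-4 at 100 U/mL for 24 h. AclyM-KO mice carried *Acly* with loxP sites around exon 9 and a Cre transgene under *Lyz2*, a promoter active in myeloid cells, whereas their Ctrl littermates carried the floxed alleles (Acly fl/fl). Each group had 3 libraries, all of them IL-4-treated, and no Toll-like receptor ligand was added. The methods of the study call these biological replicates while a legend calls them technical replicates of pooled mice, so the p-values below measure the spread between libraries and may not measure that between mice.

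Toll-like receptors are membrane proteins with a leucine-rich ectodomain that recognise microbial molecules and a cytoplasmic TIR domain that recruits the adaptors MyD88 or TRIF. Tlr1, Tlr2, Tlr4, Tlr5 and Tlr6 act at the cell surface on lipopeptides, lipopolysaccharide and flagellin. Tlr3, Tlr7, Tlr8, Tlr9 and Tlr13 act in endosomes on nucleic acids, after the chaperone Unc93b1 has carried them there and cathepsins have cleaved them. In macrophages their signalling activates NF-κB, MAP kinases and interferon regulatory factors.

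Total counts on the rows used were 12151975 to 14739689 per Ctrl library and 14745614 to 15587283 per AclyM-KO library. *Acly* counts were 4917, 3925 and 4606 in Ctrl libraries and 2140, 2078 and 1978 in AclyM-KO libraries. The labels therefore matched the targeted gene, with a log2 fold change of -1.27 (SE 0.0533) and counts that remained in the AclyM-KO libraries. CPM values are counts scaled to the size of each library. Macrophage markers summed to 7687 to 7999 CPM in Ctrl and 7386 to 7757 in AclyM-KO, with *Cx3cr1* the one of 8 markers at 0. Macrophage identity genes were abundant in every library.

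*Tlr4*, the lipopolysaccharide receptor, was higher in AclyM-KO BMDMs, and *Tlr2*, *Tlr3* and *Tlr9* were lower. Of the 9 tested receptors, 1 rose and 3 fell at an adjusted p under 0.05 in edgeR's quasi-likelihood test, and the other 5 were not called. Among all genes tested, 12.4% were called higher and 12.6% lower. With a log2 fold change beyond 0.58 also required, no receptor rose and only *Tlr2* fell, beside 2.98% and 2.57% of all genes. Libraries of the groups did not overlap for 2 receptors that were higher and 3 that were lower, beside 20.5% and 19.8% of all genes. The median log2 fold change was -0.061 over the 9 receptors and 0.0014 over all genes tested. With 9 genes these shares are coarse, and the values of the single receptors follow. RNA of a whole culture was measured, so fewer cells carrying a transcript and less of it per cell cannot be told apart.

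**Figure D1:**
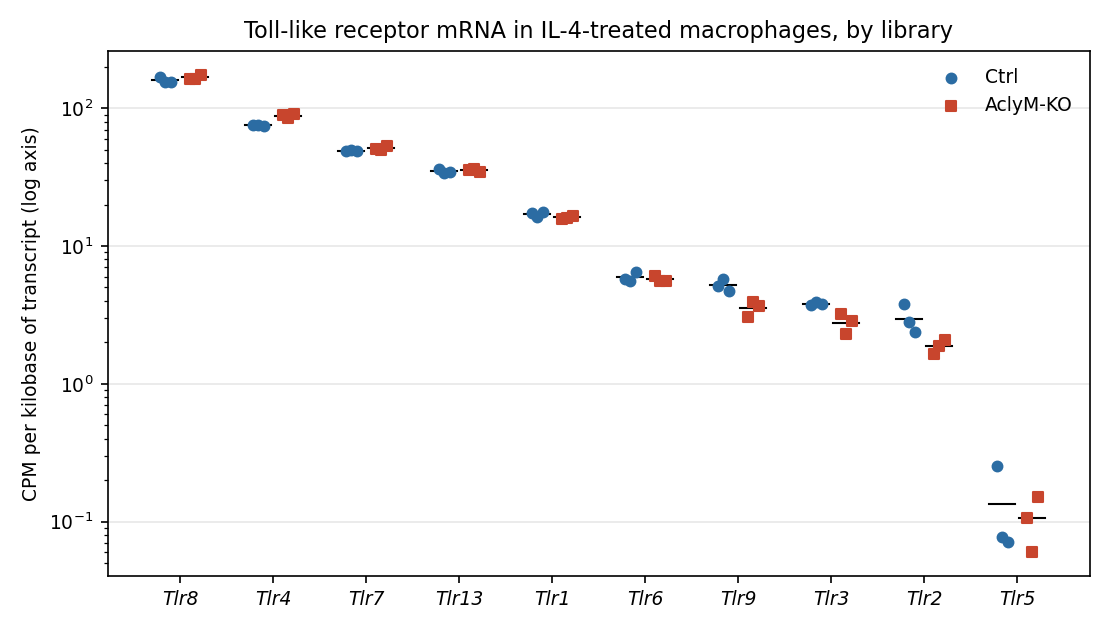
mRNA level of each Toll-like receptor gene in CPM per kilobase of transcript on a log axis, with blue circles for the 3 Ctrl libraries, red squares for the 3 AclyM-KO libraries and a black line at each group mean. *Tlr8* is at the top with group means of 159.39 and 167.26, *Tlr5* is at the bottom with 0.134 and 0.106, and the order of the 10 genes is the same in both groups.

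The receptors spanned a wide range of abundance. Levels between genes are compared as CPM per kilobase, with the length of the longest transcript among the rows that carry a gene's highest count. For *Tlr8*, whose 3 rows had identical counts, this was 3431 bases, whereas the kept row alone was paired with a fragment of 485 bases, by which its level, its share of the family and its ratio to *Tlr7* would all be higher. *Tlr8*, an endosomal receptor, was the most abundant, with a mean of 159.39 ± 7.85 (SD, n = 3) in Ctrl and 167.26 ± 7.195 in AclyM-KO. *Tlr4* followed at 75.5 ± 0.585 and 88.2 ± 3.46. *Tlr7*, a receptor for single-stranded RNA, stood at 49.3 ± 0.198 and 51.2 ± 1.53. These levels were the top of the family, and *Tlr13*, which recognises bacterial ribosomal RNA in mice, came next at 34.8 ± 1.04 and 35.5 ± 0.789. *Tlr1*, a partner of Tlr2 for triacylated lipopeptides, had 17.1 ± 0.799 and 16.1 ± 0.413.

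The lower end of the order held *Tlr6*, *Tlr9*, *Tlr3* and *Tlr2*. *Tlr6*, the Tlr2 partner for diacylated lipopeptides, had means of 5.97 ± 0.489 in Ctrl and 5.72 ± 0.255 in AclyM-KO, again in CPM per kilobase. *Tlr9*, the receptor for unmethylated CpG DNA, had 5.20 ± 0.514 and 3.54 ± 0.440. *Tlr3*, the receptor for double-stranded RNA, had 3.81 ± 0.0740 and 2.78 ± 0.460. *Tlr2* itself, the common partner in lipopeptide recognition, was less abundant than both of its partner receptors, at 2.98 ± 0.717 and 1.87 ± 0.220. Library ranges of neighbours in this order overlapped for *Tlr6* and *Tlr9* and for *Tlr3* and *Tlr2* in Ctrl, and for *Tlr9* and *Tlr3* in AclyM-KO. With these lengths, every other pair of neighbours was separated in both groups. The lengths are of GENCODE transcripts, while the counts are of RefSeq rows. The RefSeq gene of *Tlr4* ends at 66846581, beyond the transcript used, which ends at 66842800. RefSeq spans of *Tlr7* and *Tlr8* also reach beyond theirs. Whether the counted rows include those bases is not given in the sources used here. Longer lengths would lower these levels and change the shares below.

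The 4 most abundant receptors made up 89.9% to 90.2% of the summed receptor level in Ctrl libraries and 91.8% to 92.0% in AclyM-KO libraries. *Tlr4* alone made up 20.7% to 21.8% in Ctrl and 23.3% to 24.1% in AclyM-KO, while *Tlr9* made up 1.36% to 1.64% and 0.828% to 1.08%. The endosomal receptors together held 70.8% to 71.9% of the summed level in Ctrl and 69.5% to 70.2% in AclyM-KO. These shares are parts of one sum, so a rise in one lowers the others. The summed level itself was 348 to 365 CPM per kilobase in Ctrl and 362 to 385 in AclyM-KO, and these ranges overlapped.

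Among the surface receptors, *Tlr4* (chr4:66827551-66846581 on the plus strand, GRCm38.p6) was the one that rose. Its CPM was 307, 310.2 and 305 in Ctrl libraries and 364, 344 and 371 in AclyM-KO libraries. The Ctrl libraries lay within a few CPM of each other, and every AclyM-KO library was above them. The means were 308 ± 2.38 and 359 ± 14.1 CPM, a log2 fold change of 0.22 (SE 0.0465, 95% interval 0.13 to 0.32, edgeR adjusted p = 0.00240). The mean level in AclyM-KO was 117% of that in Ctrl. This receptor kept its call without any single library, with log2 fold changes of 0.20 to 0.26.

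*Tlr2* (chr3:83836272-83841824 on the minus strand) fell. Its CPM was 11.4, 8.42 and 7.13 in Ctrl libraries and 4.98, 5.66 and 6.30 in AclyM-KO libraries, from counts of 168, 103, 94, 73, 88 and 92. All AclyM-KO libraries were below all Ctrl libraries, but the gap between the lowest Ctrl and the highest AclyM-KO library was small beside the spread within Ctrl. The mean level in AclyM-KO was 63.0% of that in Ctrl, with a log2 fold change of -0.68 (SE 0.176, 95% interval -1.05 to -0.30, edgeR adjusted p = 0.0109). The call rested on single libraries. Without Ctrl replicate 1 the log2 fold change was -0.46 (edgeR adjusted p = 0.0694), and without AclyM-KO replicate 1 it was -0.59 (edgeR adjusted p = 0.0528). The ratio of *Tlr4* to *Tlr2*, per kilobase, was 20.02 to 31.6 in Ctrl libraries and 43.5 to 54.0 in AclyM-KO libraries.

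The partners of Tlr2 were not called. *Tlr1* (chr5:64924680-64933600 on the minus strand) had 52.4, 49.0 and 53.7 CPM in Ctrl and 47.6, 48.6 and 50.1 in AclyM-KO, with overlapping groups and a log2 fold change of -0.085 (95% interval -0.21 to 0.040, edgeR adjusted p = 0.320). *Tlr6* (chr5:64953092-64970942 on the minus strand) had 21.2, 20.6 and 23.98 CPM in Ctrl and 22.1, 20.7 and 20.4 in AclyM-KO. Its groups overlapped too, with a log2 fold change of -0.061 (95% interval -0.25 to 0.12, edgeR adjusted p = 0.660) whose sign turned to 0.0022 without Ctrl replicate 3. *Tlr5* (chr1:182954752-182976044 on the plus strand), the flagellin receptor, was barely detected. It had counts of 12, 3 and 3 in Ctrl and 5, 3 and 7 in AclyM-KO, below the filter on low counts, and a difference was not detectable at this depth (exact two-sided permutation test, p = 0.8, where 0.1 is the smallest value that 3 against 3 libraries allow).

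The neighbouring genes *Tlr1* and *Tlr6* share sequence, and their values are uncertain for that reason. Of all 50-base windows in the transcripts, 15.3% of those in *Tlr1* and 12.5% of those in *Tlr6* also occurred in the other gene, and no other pair of the 10 receptors shared a window of that length. The longest run common to both transcripts was 229 bases, all of it coding, in exon 4 of 4 of *Tlr1* (chr5:64925537-64925765, minus strand) and in exon 2 of 2 of *Tlr6* (chr5:64953828-64954056, minus strand). It is printed from the GENCODE M21 transcripts of GRCm38 because a read from within it cannot be assigned to either receptor.
Tlr1 and Tlr6 shared run: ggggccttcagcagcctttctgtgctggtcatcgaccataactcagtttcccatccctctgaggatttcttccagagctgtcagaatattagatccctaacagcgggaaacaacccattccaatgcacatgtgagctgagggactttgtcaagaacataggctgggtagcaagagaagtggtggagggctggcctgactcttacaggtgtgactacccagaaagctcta
How such reads were counted is not given in the sources used here.

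Among the endosomal receptors, *Tlr9* (chr9:106222598-106226876 on the plus strand) fell. Its CPM was 17.9, 19.96 and 16.4 in Ctrl libraries and 10.6, 13.6 and 12.7 in AclyM-KO libraries, from counts of 265, 244, 216, 156, 212 and 185. Every AclyM-KO library was below every Ctrl library. The mean in AclyM-KO was 68.1% of that in Ctrl, with a log2 fold change of -0.55 (SE 0.114, 95% interval -0.79 to -0.31, edgeR adjusted p = 0.00239). It kept its call without any single library, at -0.63 to -0.46.

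*Tlr3* (chr8:45395665-45411075 on the minus strand) also fell. Its CPM was 16.6, 17.2 and 16.7 in Ctrl libraries and 14.1, 10.1 and 12.5 in AclyM-KO libraries. The Ctrl libraries were close together while the AclyM-KO libraries were spread, all of them below Ctrl. The log2 fold change was -0.46 (SE 0.117, 95% interval -0.71 to -0.21, edgeR adjusted p = 0.00982), and the mean in AclyM-KO was 72.9% of that in Ctrl. Without AclyM-KO replicate 2, the lowest library, the value was -0.33 and the call was lost (edgeR adjusted p = 0.0590). Exons of *Gm45542* on the other strand cover 2.66% of the exonic bases of *Tlr3*, and none of the other receptors had exonic bases under another gene's exons.

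The other endosomal receptors, *Tlr7*, *Tlr8* and *Tlr13*, all lie on the X chromosome and were not called. *Tlr7* (chrX:167303380-167330574 on the minus strand) had 192, 193 and 191 CPM in Ctrl libraries and 198, 195 and 206 in AclyM-KO libraries. The groups did not overlap, yet the log2 fold change was only 0.056 (95% interval -0.045 to 0.16, edgeR adjusted p = 0.427). *Tlr8* (chrX:167241123-167264329 on the minus strand), next to *Tlr7*, had 578, 534 and 529 CPM in Ctrl and 564, 556 and 602 in AclyM-KO, with a log2 fold change of 0.069 (95% interval -0.034 to 0.17, edgeR adjusted p = 0.328). *Tlr13* (chrX:106143275-106160493 on the plus strand) had 146, 138 and 139.6 CPM in Ctrl and 144, 147 and 141 in AclyM-KO, with a log2 fold change of 0.029 (95% interval -0.074 to 0.13, edgeR adjusted p = 0.707). Both overlapped between the groups, and each of these intervals excluded a change as large as that fitted for *Tlr4* or *Tlr9*. Per kilobase, *Tlr7* exceeded *Tlr9* by 8.62 to 10.4 times in Ctrl and by 12.7 to 16.6 times in AclyM-KO, while the ratio of *Tlr8* to *Tlr7* was 3.14 to 3.42 and 3.24 to 3.32.

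**Figure D2:**
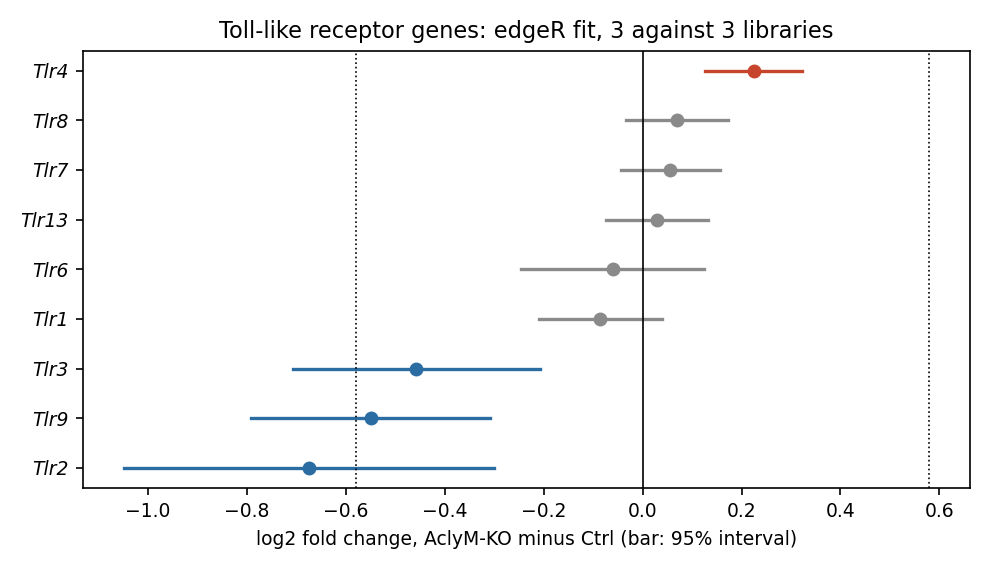
Log2 fold change of the 9 tested receptors, AclyM-KO minus Ctrl, from the edgeR fit over 3 against 3 libraries, with 95% intervals as bars and dotted lines at 0.58 in both directions. *Tlr4* in red lies above 0 at 0.22, *Tlr3*, *Tlr9* and *Tlr2* in blue lie below 0 at -0.46, -0.55 and -0.68, and the intervals of the 5 receptors in grey include 0.

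The promoters of the most abundant receptor, *Tlr8*, which was not called, and of the called receptor *Tlr9* are shown as examples from RefSeq sequence of GRCm38.p6. Windows of other receptors could be read too, among them the called *Tlr2* and *Tlr3*, and are not printed. The 250 bases before each start are *Tlr8* at chrX:167264330-167264579 on the minus strand and *Tlr9* at chr9:106222348-106222597 on the plus strand. Capitals mark a match to GAGGAA, the core bound by the myeloid factor PU.1, on either strand, and in *Tlr8* also an overlapping match to the STAT6 motif, which is TTC and GAA 4 bases apart. STAT6 is the factor that IL-4 activates.
Tlr8 promoter: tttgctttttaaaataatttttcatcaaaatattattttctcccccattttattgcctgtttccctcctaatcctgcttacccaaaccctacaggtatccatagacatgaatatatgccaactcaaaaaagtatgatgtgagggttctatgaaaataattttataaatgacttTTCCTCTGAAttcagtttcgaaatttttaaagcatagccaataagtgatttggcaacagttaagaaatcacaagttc
Tlr9 promoter: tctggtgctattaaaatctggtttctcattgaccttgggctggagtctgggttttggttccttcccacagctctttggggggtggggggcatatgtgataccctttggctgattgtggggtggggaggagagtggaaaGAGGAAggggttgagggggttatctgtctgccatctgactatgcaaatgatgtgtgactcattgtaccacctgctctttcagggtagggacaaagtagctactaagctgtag

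The match in *Tlr8* begins 77 bases before the start, and that in *Tlr9* begins 112 bases before it. No RefSeq promoter was matched for *Tlr4* and *Tlr7*, so these were not searched for motifs. The other 8 of the 10 receptors had 10 windows in all. GAGGAA occurred in 4 of them (*Tlr1*, *Tlr8*, *Tlr9* and *Tlr13*), beside 23.3% of 32851 mouse promoters of the same length. The STAT6 motif was found in *Tlr8* alone, beside 5.85% of all promoters. The AP-1 motif TGANTCA was found only in *Tlr9*, 58 bases before the start, beside 6.75%. An interferon response motif of GAAA and GAAA 2 bases apart was found only in *Tlr6*, beside 2.98%. It lay in the window whose start is 881 bases inside the transcript used. The other *Tlr6* window, 1 base from the beginning of the transcript, had no match. An NF-κB motif of GGGA, 4 bases of any kind and CC was found in *Tlr2*, *Tlr3* and *Tlr5*, beside 17.6%. The starts used for *Tlr2* and *Tlr3* lay 159 and 239 bases inside their transcripts, and the *Tlr3* matches fell within the span of its transcript. *Tlr2* and *Tlr3* were called lower and *Tlr5* was too low to test. *Tlr9*, also called lower, had no NF-κB match, and a link between motif and call was not tested. All motifs were searched on both strands, and a match describes the letters in this window only.

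**Figure D3:**
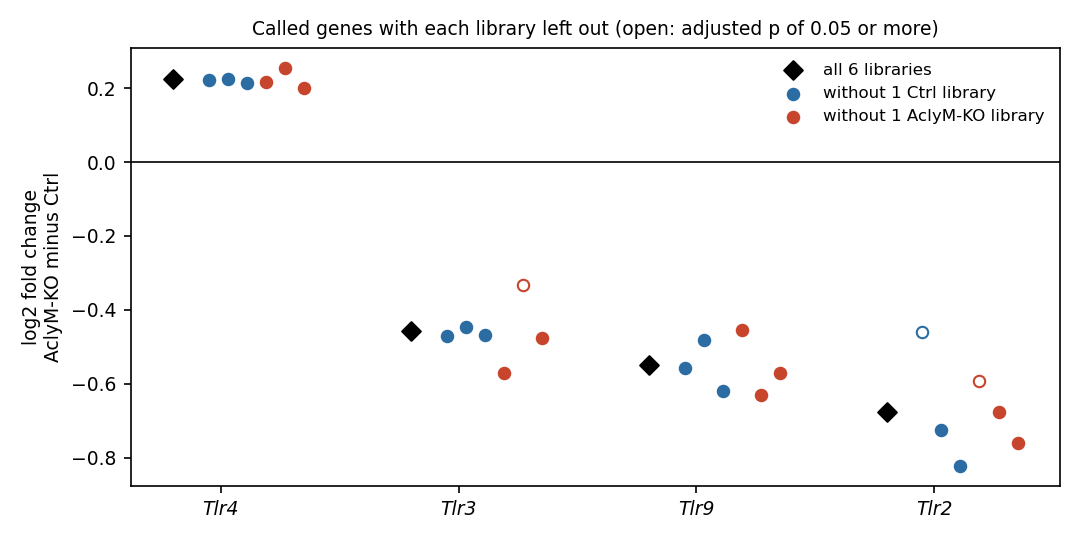
Log2 fold change, AclyM-KO minus Ctrl, of the 4 called receptors with all 6 libraries (black diamonds) and with 1 Ctrl library (blue circles) or 1 AclyM-KO library (red circles) left out, where open circles have an edgeR adjusted p of 0.05 or more. *Tlr4* and *Tlr9* have only filled circles, *Tlr3* has 1 open circle at -0.33, and *Tlr2* has 2 open circles at -0.46 and -0.59.

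Markers of other cells that express Toll-like receptors summed to less than the macrophage markers in every library. Their sums were not all below the receptors. Mean CPM was 18.1 in Ctrl and 12.3 in AclyM-KO for *Tlr9*, and 8.97 and 5.65 for *Tlr2*. Plasmacytoid dendritic cells and B cells are known for high *Tlr9*. The 6 plasmacytoid dendritic cell markers summed to 72.5 to 77.0 CPM in Ctrl and 60.4 to 65.1 in AclyM-KO, almost all of it *Tcf4*, which was lower (log2 fold change -0.26, edgeR adjusted p = 0.00252), while the other 5 had at most 3 counts in any library, *Klk1*, *Ly6d* and *Pacsin1* among them at 0. The 6 B cell markers summed to 2.54 to 3.11 CPM in Ctrl and 1.51 to 2.19 in AclyM-KO, with *Cd79b* lower (log2 fold change -0.93, edgeR adjusted p = 0.0138). Both sums moved in the direction of *Tlr9*. The 10 neutrophil markers summed to 17.1 to 19.3 CPM in Ctrl and 24.9 to 26.7 in AclyM-KO, opposite to *Tlr2*. *S100a8* (0.85, edgeR adjusted p = 0.00257) and *S100a9* (0.59, edgeR adjusted p = 0.0152) were higher. Most of the rest of this sum came from *Ngp* (0.37) and *Ltf* (0.35), which were not called. *Ly6g*, *Elane*, *Mpo*, *Camp* and *Retnlg* had at most 5 counts in any library. Conventional dendritic cell markers summed to 2.5 to 4.34 and 3.91 to 5.08 CPM, with *Cd209a* higher without overlap (1.65, edgeR adjusted p = 0.0128), and T and NK cell markers to 0.541 to 1.15 and 0.750 to 0.891. The part of these cells in the receptor values was not tested.

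The genes through which the receptors work were described from lists of co-receptors and trafficking genes, adaptors and kinases, transcription factors, inhibitors and induced cytokines. Of 81 tested genes of 86 in these lists, 7 rose and 17 fell, and 57 were not called, with a median log2 fold change of -0.004. As shares these are read beside 12.4% and 12.6% of all genes. Beyond the limit of 0.58, only *Ctsk* rose and only *Ly86* and *Lbp* fell. *Lbp*, which delivers lipopolysaccharide to CD14 and is named here after its values were seen, had counts of 49, 39 and 38 in Ctrl and 26, 38 and 20 in AclyM-KO. Its call was lost without any one of 5 of the 6 libraries, and also under DESeq2 with all 6.

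Beside *Tlr4*, its co-receptors were not called. *Cd14*, which hands lipopolysaccharide on, had a log2 fold change of -0.036 (95% interval -0.19 to 0.12, edgeR adjusted p = 0.768), and *Ly96*, the lipid-binding subunit of the Tlr4 complex, had 0.090 (95% interval -0.11 to 0.29, edgeR adjusted p = 0.529). *Cd180*, a Tlr4 homologue without a TIR domain, had 0.056 (edgeR adjusted p = 0.419). Its partner *Ly86* fell, from 76.7, 63.7 and 70.4 CPM in Ctrl to 45.2, 44.2 and 48.9 in AclyM-KO, with no overlap (log2 fold change -0.61, SE 0.0693, edgeR adjusted p = 1.30e-05). So the receptor *Cd180* and its partner *Ly86* had different calls. *Cd36*, a scavenger receptor that assists Tlr2, rose by a log2 fold change of 0.37 (edgeR adjusted p = 1.48e-04).

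Beside the endosomal receptors, *Unc93b1*, their transport chaperone, fell. Its CPM was 543, 481 and 514 in Ctrl and 437, 437 and 472 in AclyM-KO, all below Ctrl but near its lowest library. The log2 fold change was -0.19 (SE 0.0524, edgeR adjusted p = 0.0140), and the call was lost without Ctrl replicate 1, AclyM-KO replicate 1 or AclyM-KO replicate 2. *Slc15a3*, a peptide and histidine transporter of endolysosomes, also fell (-0.20, edgeR adjusted p = 0.00307). The proteases that can cleave endosomal receptors moved in both directions, with *Ctsk* (1.04), *Ctsl* (0.35) and *Ctsb* (0.13) higher and *Ctss* (-0.17) lower. The call of *Ctsb* was lost without AclyM-KO replicate 1 or 3, and its lowest value was 0.072. The chaperones *Hsp90b1* and *Cnpy3*, which fold most receptors of the family, were not called, at -0.047 and 0.076. Of the 18 genes in the list of co-receptors, chaperones and trafficking, 4 rose and 6 fell, beside 12.4% and 12.6% of all genes tested. The median was -0.0051.

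Of the 23 adaptors, kinases and ubiquitin ligases, 2 rose and 6 fell, beside 12.4% and 12.6% of all genes tested. The median was -0.036. *Ikbkb*, named here after its values were seen, was among those that fell (-0.14, edgeR adjusted p = 0.0471). Its call was lost in 9 of the 16 alternative fits, DESeq2 and limma-voom among them. *Myd88*, the adaptor of all receptors of the family but Tlr3, had 0.18 (edgeR adjusted p = 0.0520), so it was not called. *Ticam1*, which encodes TRIF, the adaptor of Tlr3 and Tlr4, fell by 0.25 (edgeR adjusted p = 0.00769) on the log2 scale. *Tirap*, the bridge from Tlr2 and Tlr4 to MyD88, fell as well, at -0.36 (edgeR adjusted p = 0.0186), but did not pass the test when Ctrl replicate 1, AclyM-KO replicate 1 or AclyM-KO replicate 3 was removed. None of these adaptors passed the test in the direction of *Tlr4*. Among kinases, *Irak2* (-0.43, edgeR adjusted p = 9.98e-04) and *Ikbke* (-0.36, edgeR adjusted p = 8.21e-05) fell, as did the signalling adaptor *Pik3ap1* (-0.22, edgeR adjusted p = 0.0202), whose call was lost without AclyM-KO replicate 2 or 3. *Ikbkg*, the regulatory subunit of the IκB kinase, rose by 0.23 (edgeR adjusted p = 0.00125), and by 0.51 when its longest transcript row was used. *Mapkapk2*, named here after its values were seen, also rose (0.16, edgeR adjusted p = 0.0304). Its call was lost in 7 of the 16 alternative fits.

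Of 14 transcription factors, 1 rose and 2 fell, beside 12.4% and 12.6% of all genes tested, with a median of 0.012. *Nfkb2*, which rose and is named here after its values were seen, had 0.19 (edgeR adjusted p = 0.0418). Its call was lost in 8 of the 16 alternative fits, DESeq2 among them. *Irf8*, a myeloid factor that acts with PU.1, fell from 187, 171 and 184 CPM in Ctrl to 137.5, 135 and 129.6 in AclyM-KO, well apart (log2 fold change -0.43, edgeR adjusted p = 2.36e-05). *Nfkb1* fell by 0.19 (edgeR adjusted p = 0.00792) on the log2 scale, and *Rela* stood at 0.0076 (edgeR adjusted p = 0.942). *Irf5* and *Irf7*, which transmit signals of the endosomal receptors, had -0.071 and 0.19 and were not called.

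Of 17 tested inhibitors of the pathway, 3 fell and 0 rose in edgeR, where 2 were higher at an unadjusted p under 0.05 and DESeq2 also called 0 higher. The median was -0.011, and over all genes tested 12.4% were called higher and 12.6% lower in edgeR. The 3 that fell were *Tnfaip3* (-0.31, edgeR adjusted p = 0.00499) and *Cyld* (-0.21, edgeR adjusted p = 0.00763), both deubiquitinases, and *Zc3h12a* (-0.32, edgeR adjusted p = 0.00554), an RNase that degrades cytokine mRNA. *Irak3*, a decoy kinase, had -0.17 (edgeR adjusted p = 0.278). Of the cytokines and mediators that Toll-like receptors induce, 9 of 13 had enough reads to be tested and 0 were called by edgeR, with a median of 0.26. *Il1b*, at -0.74, was the one of them that passed an unadjusted p under 0.05 (edgeR adjusted p = 0.110). DESeq2, run as an alternative, called 0 of them, with 0 at an unadjusted p under 0.05. *Tnf* had counts of 127, 95 and 79 in Ctrl and 118, 174 and 102 in AclyM-KO, which overlapped (0.23, edgeR adjusted p = 0.386). *Il12b* had 1 to 3 counts in every library, and *Ifnb1* had none.

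**Figure D4:**
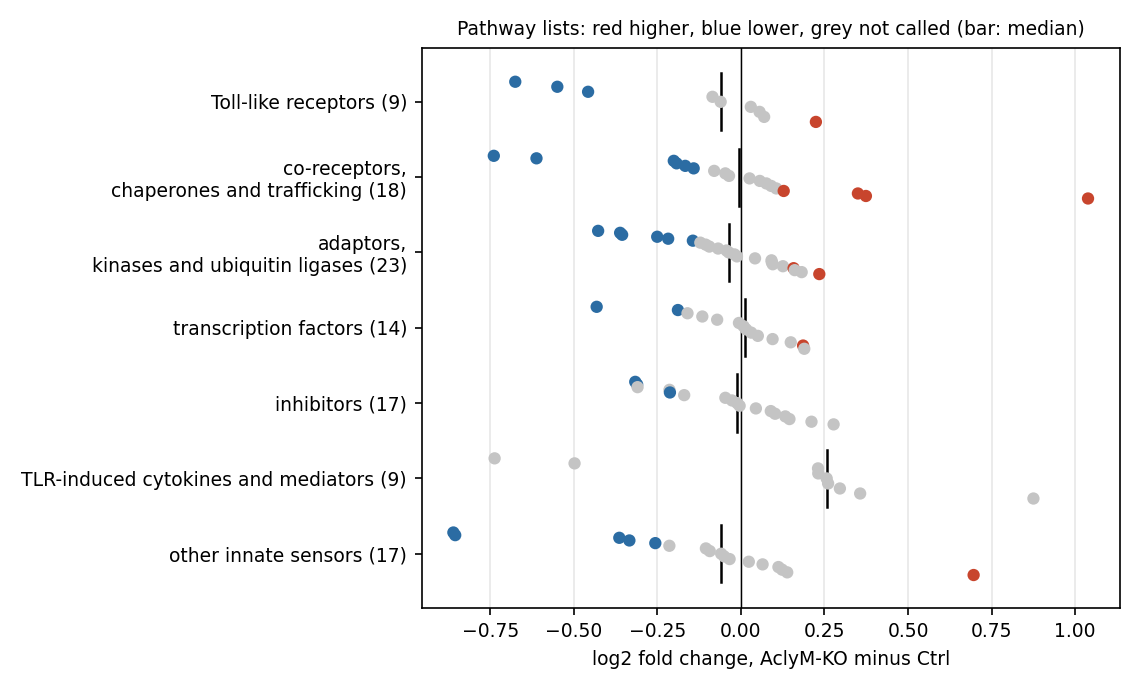
Log2 fold change, AclyM-KO minus Ctrl, of every tested gene in each list, with the number tested in brackets, red for called higher, blue for called lower, grey for not called and a black bar at the median of the list. The receptors have 1 red and 3 blue points around a median of -0.061, co-receptors 4 and 6, adaptors 2 and 6, transcription factors 1 and 2, inhibitors 0 and 3, cytokines none of either colour and other sensors 1 and 5. Over all genes tested, 12.4% were called higher and 12.6% lower.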

How the data were processed

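RNA of IL-4-treated BMDMs was sequenced in 3 Ctrl and 3 AclyM-KO libraries, grouped by the labels. The authors built stranded libraries from mRNA, mapped them to mm10 (CASAVA 1.8.2 and STAR 2.5.2b in the submitters' processing notes) and deposited unscaled counts of reads, 1 row a RefSeq transcript. The counting program, and whether it used strand, are not given in the sources used here. Of 35745 rows, 35435 were paired with genes through RefSeq GRCm38.p6 and 193 through GENCODE M21. The 117 rows without a gene held 0.370% to 1.38% of the counts and were left out. The row with the highest total was kept for each gene, and the 50-base windows and exons were read from GENCODE M21. Promoters and gene positions are those of RefSeq GRCm38.p6, and X-linked genes are written with chrX.

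The test was edgeR's quasi-likelihood F-test (version 4.0.16, R 4.3.3) after filterByExpr and TMM scaling, with genotype alone in the model and Benjamini-Hochberg adjustment over all 12023 genes tested. Across genes the biological coefficient of variation was 0.0588. CPM use TMM-scaled library sizes, errors are SD, and n is 3 libraries a group. Within a group, libraries differed by more than sampling noise (chi-square per gene 2.32 to 7.57), so no library was a copy of another, which does not show whether they came from separate mice. Alternatives were DESeq2 1.42.0, voom in limma 3.58.1, other scalings, filters and transcript rows, a replicate block, fold change limits of 0.58 and 1, and each library left out in turn. The procedure was tested on simulated data. The members, lists and tests were chosen with earlier results of these data known. Named genes are *Acly*, the receptors, the 25 pathway genes and sensors with the smallest adjusted p, 10 genes named whatever their values (*Cd14*, *Ly96*, *Unc93b1*, *Myd88*, *Ticam1*, *Irak3*, *Nfkb1*, *Rela*, *Tnf* and *Il12b*), and a few others from the lists, such as *Cd180*, *Hsp90b1*, *Cnpy3*, *Irf5*, *Irf7*, *Il1b* and *Clec7a*, that were named after their values were seen. Intervals come from the fit and cover the spread between libraries only.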

Additional observations from a re-analysis of the deposited data

How the results depend on the processing

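Under DESeq2, limma-voom, the other scalings, filters and transcript rows, robust dispersion and the replicate block, all 90 values of single receptors kept their direction and their side of the threshold. A fold change limit lowered the counts by its construction. The receptors called higher went from 1 to 0 with a limit of 0.58 and 0 with a limit of 1, and those called lower from 3 to 1 and 0. The pathway genes called higher went from 7 to 1 and those called lower from 17 to 2 with the limit of 0.58.

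When single libraries were left out, the receptors called higher stayed at 1 and those called lower ranged from 2 to 3, and the pathway genes called ranged from 5 to 7 higher and from 12 to 17 lower. The log2 fold change of *Tlr2* ranged from -0.82 to -0.46, with the call lost without Ctrl replicate 1 or AclyM-KO replicate 1. That of *Tlr3* ranged from -0.57 to -0.33, with the call lost without AclyM-KO replicate 2. That of *Tlr6*, never called, ranged from -0.11 to 0.0022, the last of these without Ctrl replicate 3. The cause was not tested in any of these fits. Of the 24 called pathway genes, 15 kept their adjusted p under 0.05 in each of the 16 alternative fits, which leave out the fold change limits.

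The labels number the libraries 1 to 3 in both groups but do not say that equal numbers pair them, and the deviations of same-numbered libraries had correlations of -0.065, 0.05 and -0.031. With a replicate block the calls over all genes went from 1485 higher and 1511 lower to 1315 and 1329, and the receptors had log2 fold changes of 0.22 (*Tlr4*), -0.56 (*Tlr9*), -0.46 (*Tlr3*) and -0.66 (*Tlr2*), all still called. DESeq2 called 1119 genes higher and 1148 lower. Counts under 20 per library, as for *Tlr5*, limit what can be seen at this depth.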

Other observations

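Other innate sensors outside the Toll-like receptor family included genes that were lower in AclyM-KO BMDMs. Of 17 genes in this list, 1 rose and 5 fell, beside 12.4% and 12.6% of all genes tested, with a median log2 fold change of -0.059. *Nod1*, a cytosolic sensor of bacterial peptidoglycan, fell from 21.01, 15.3 and 16.6 CPM in Ctrl to 8.94, 10.2 and 10.3 in AclyM-KO (log2 fold change -0.86, edgeR adjusted p = 1.61e-04). All AclyM-KO libraries were below all Ctrl libraries. *Nlrc4*, an inflammasome component that responds to bacterial flagellin, fell from 7.57, 6.13 and 6.07 CPM to 3.75, 3.41 and 3.77 (-0.86, edgeR adjusted p = 0.00157). *Ifi204*, a cytosolic DNA sensor, had -0.33 (edgeR adjusted p = 1.09e-04). *Clec4e*, the receptor Mincle for mycobacterial glycolipid, was the sensor that rose, from 10.6, 8.59 and 8.73 CPM to 12.5, 19.4 and 13.5 (0.70, edgeR adjusted p = 0.00459). Its AclyM-KO libraries were spread but lay above Ctrl.

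These 4 sensors kept an adjusted p under 0.05 in each of the 16 alternative fits, but *Ifi204* did not reach the log2 fold change limit of 0.58 and none of the 4 reached 1. *Aim2*, another DNA sensor (-0.26, edgeR adjusted p = 0.0190), lost its call without Ctrl replicate 1, AclyM-KO replicate 2 or AclyM-KO replicate 3. *Nlrp3*, an inflammasome sensor (-0.36, edgeR adjusted p = 0.0272), overlapped between the groups and lost its call without any one of 4 libraries, Ctrl replicates 2 and 3 and AclyM-KO replicates 1 and 3. The β-glucan receptor *Clec7a* had -0.034 (edgeR adjusted p = 0.535).

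Among 7 tested macrophage markers, 1 rose and 3 fell, beside 12.4% and 12.6% of all genes tested. *Adgre1*, which encodes F4/80, rose at 0.33 (edgeR adjusted p = 2.27e-05). *Mertk*, an efferocytosis receptor, had -0.73 (edgeR adjusted p = 2.56e-07), *Itgam*, which encodes CD11b, had -0.28 (edgeR adjusted p = 0.00113), and *Csf1r*, the receptor for the macrophage growth factor, had -0.20 (edgeR adjusted p = 0.00366). Of the Toll-like receptor genes outside the 10 described, *Tlr11* had counts of 12, 7 and 7 in Ctrl and 5, 10 and 7 in AclyM-KO, and *Tlr12* had 0 or 1 in every library. Both were below the filter on low counts.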
